A study of Drosophila melanogaster with 24 samples.

Results

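The genes described here are heat shock proteins and molecular chaperones of Drosophila melanogaster, measured in hand-sorted neurons of the adult fly brain. They were chosen by name alone, as genes whose symbol starts with Hsp and a digit, Hsc70, DnaJ or CCT and a digit, together with Hsf, where a probe set carried 1 symbol only. This gave 24 genes of 11982 genes with such a probe set, and where a gene had several such probe sets the one with the highest average level on the 24 arrays was used. The study asked how transcripts differ between clock neurons and other neurons and over the day. GFP marked the cells, and each array holds amplified RNA from GFP-positive cells collected by hand from about 50 dissected and protease-digested brains. Flies lived in a cycle of 12 h light and 12 h dark, and times are zeitgeber times (ZT, in hours, with lights on at ZT0 by convention). Large PDF neurons, clock neurons that make the neuropeptide PDF, gave 3 arrays at ZT0, 3 at ZT12, 2 at ZT6 and 2 at ZT18. Small PDF neurons, the other kind of PDF clock neuron, had 2 arrays at ZT0 and 2 at ZT12. ELAV neurons, a general neuron population, had 3 arrays at each of those times. These 20 arrays came from males and females of the yw background and are called wild type here. Large PDF neurons of the clock mutant per01 had 2 arrays at ZT0 and 2 at ZT12, from males only. The labels name the GFP lines pdf-GFP for all PDF neurons and ELAV-GFP for the general neurons and call the arrays of a group biological replicates.

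Chaperones bind proteins that are unfolded or partly folded and help them reach or keep their shape. Heat shock factor switches on the stress-inducible genes (small heat shock proteins and inducible Hsp70 proteins) when unfolded proteins accumulate, while the cognate Hsc70 proteins, the mitochondrial Hsp60 chaperonin and the cytosolic CCT chaperonin work in unstressed cells. J proteins hand clients to Hsp70 proteins, and exchange factors release them.

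Values are log2 GCRMA values, a measure of probe brightness after correction for background and equalizing of arrays, so a difference of 1 is a doubling. A probe set was tested if it reached log2 5 on at least 2 arrays, and 8318 probe sets were. It was called where limma's moderated test, adjusted by Benjamini and Hochberg over all of these, gave an adjusted p below 0.05. The words higher, lower, rose and fell are used of called differences, each given with its standard error. Contrasts between cell kinds and genotypes average ZT0 and ZT12. The contrasts of large and small PDF neurons with ELAV neurons share the 6 ELAV arrays, so their values stand side by side and do not support each other. Each array pools many cells, so fewer cells that express a gene and less of its RNA per cell cannot be told apart.

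Pdf read at least 15.5 on the 10 wild-type large arrays, 15.8 to 15.9 on the 4 small arrays, 16.2 on the per01 arrays and 2.76 to 5.34 on the 6 ELAV arrays, and the neuronal marker elav read 11.3 to 12.7 on all 24. Of the 4 tested general neuron markers, Snap25 was lower in large (−1.40 ± 0.27) and small PDF (−1.81 ± 0.30) than in ELAV neurons and nSyb was lower in per01 neurons (−0.79 ± 0.24), while brp ran from 4.98 to 7.84 on small arrays and from 7.43 to 9.10 on ELAV arrays. Photoreceptor and haemocyte marker lists averaged at most 4.33 on any array, the glial list 3.23 to 5.37, and the fat body and muscle lists at most 5.67. These averages include genes with low values, and single markers read higher on some arrays. On wild-type large arrays Gs2 (glia) reached 9.53, Yp1 (fat body) 8.99, Act88F (muscle) 7.54 and Hml (haemocyte) 6.73. Large ZT0 replicate 2 had the highest averages of the glial (5.37) and haemocyte (4.33) lists. Of the 4 tested glial markers, nrv2 was higher and loco lower in small than in large PDF neurons (the latter by −1.60), and nrv2 was higher in small PDF than in ELAV neurons. In per01 neurons 3 of the 4 glial, 2 of 3 fat body and 1 of 2 muscle markers tested were lower as deposited. Of all probe sets 31% were lower in this contrast, with a median difference of −0.69. On per01 arrays Gs2, Yp2 and Tm2 read at most 3.12, 2.66 and 2.66, while loco and nrv2 read at least 5.90 and 4.25. The part of these markers in the chaperone values was not tested. Array medians were 3.14 to 3.44 in wild type, and those of per01 arrays were lower, the lowest being 2.57. Of the 11 genes on a list of immediate stress and activity genes, 10 were tested. All 10 were higher in small than in large PDF neurons, beside 9.14% of all probe sets. Against ELAV neurons 7 were higher and 0 lower in small PDF neurons (all probe sets 13.6% and 14%). In large ones 2 were higher and 3 lower (11.9% and 12.5%). In per01 neurons 1 was higher and 5 were lower as deposited (0.926% and 31%). The list's mean level was 8.93 to 10.2 on small arrays, 5.96 to 7.40 on wild-type large arrays, 7.54 to 8.34 on ELAV arrays and 5.36 to 6.73 on per01 arrays. Whether this list has a part in the chaperone values of small PDF neurons was not tested.

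Of the 24 chaperone genes 19 were tested, and all 19 read at least 7.81 on every array, so the filter did not depend on any one group. The other 5 were Hsc70-1, Hsc70-2, Hsp60B, Hsp60C and Hsp60D. Apart from Hsp60C they stayed at or below 3.83 on every array. Hsp60C read 5.62 on ZT6 replicate 1 of large PDF neurons and at most 3.76 on the other 23 arrays. Hsp60B has a known role in sperm formation, and sorted neurons gave no value for it above the filter.

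**Figure D1:**
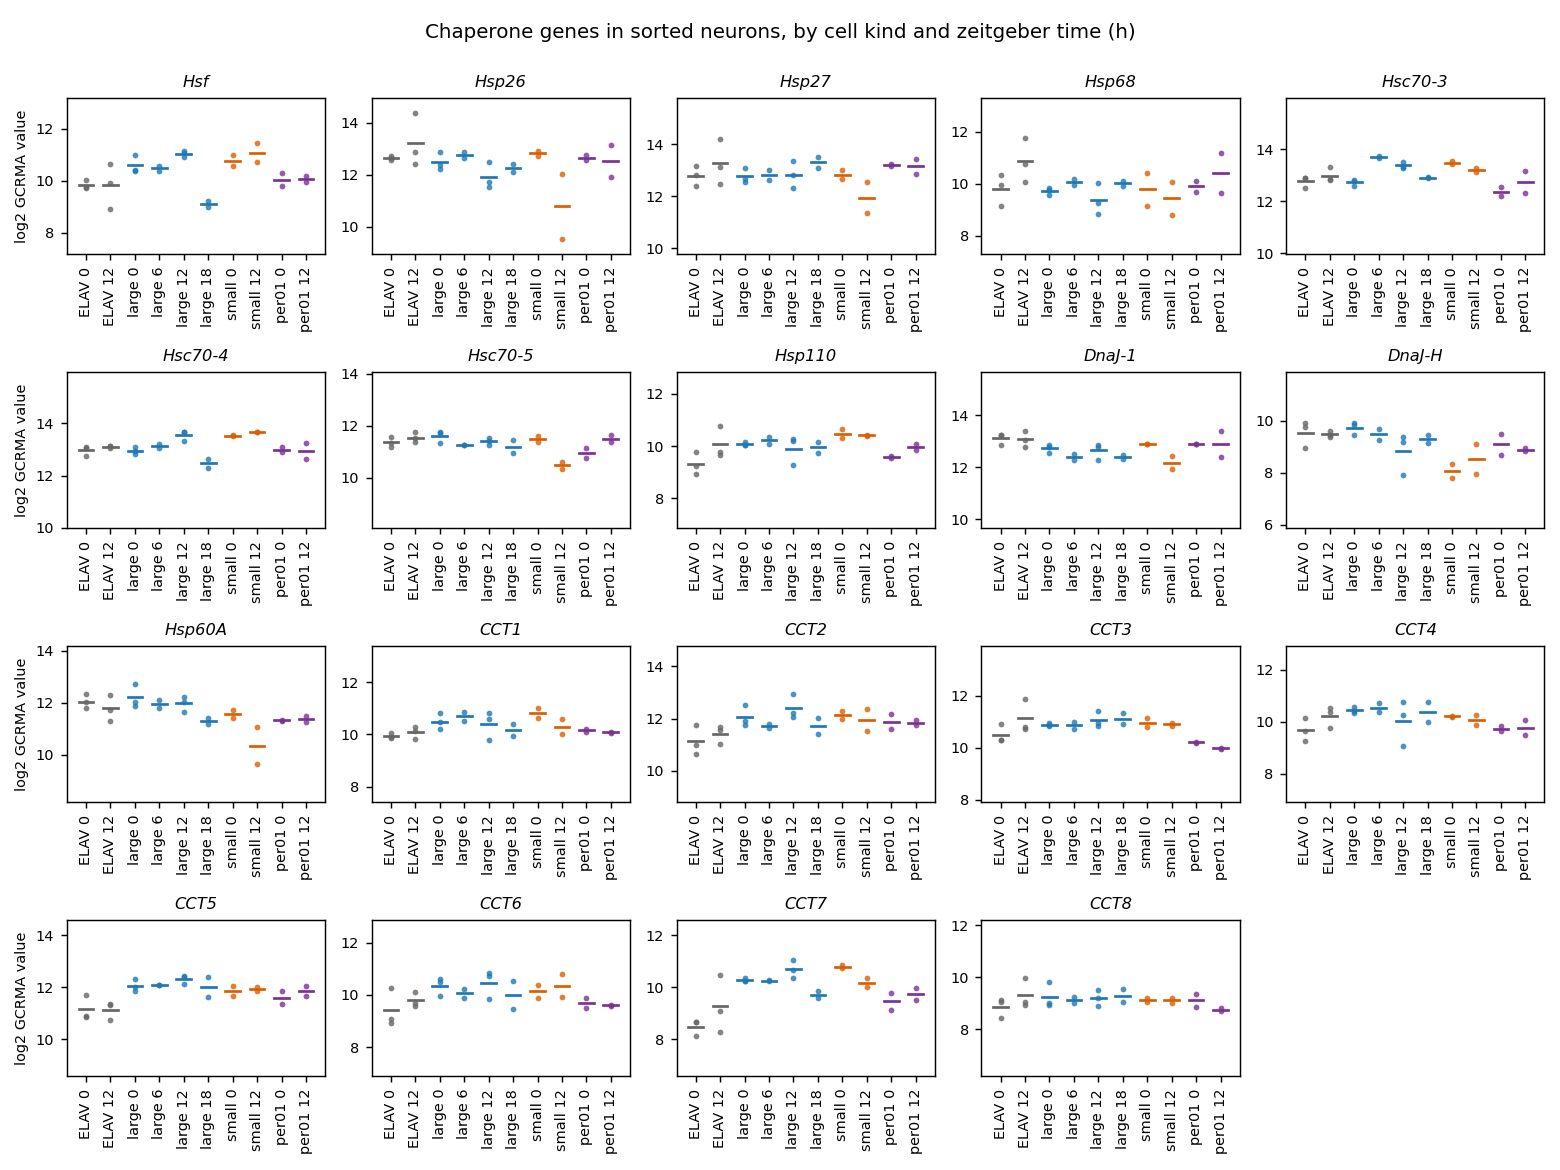
Log2 GCRMA values of the 19 tested chaperone genes (vertical axes, all of equal span) on every array, by cell kind and ZT in hours (horizontal axes). Points are arrays and bars are group means, in grey for ELAV neurons, blue for large PDF, orange for small PDF and purple for per01 large PDF neurons. CCT7 lay higher in both kinds of PDF neuron than in ELAV neurons, Hsp60A was lowest in small PDF neurons at ZT12, and Hsf read 8.99 and 9.20 in large PDF neurons at ZT18.

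Large PDF neurons had 4 chaperone genes higher than ELAV neurons (CCT7, CCT5, Hsf and CCT2) and none lower. This is 21.1% of the 19 tested, beside 24.4% of all probe sets called in either direction, 11.9% higher and 12.5% lower. At an unadjusted p below 0.05 the count was 6, of which 1 (Hsp68) was negative. The share of all probe sets at an unadjusted p was not counted, so 24.4% is no background for that count. Small PDF neurons had 5 higher than ELAV neurons (CCT7, Hsf, Hsp110, CCT5 and Hsc70-4) and 2 lower (DnaJ-H and Hsp60A), or 36.8% beside 27.6% of all probe sets (13.6% higher and 14% lower). That count lay between 4 and 9 when single arrays were left out. Between the 2 kinds of PDF neuron, DnaJ-H and Hsp60A were lower in small cells and none was higher, 10.5% beside 17.1% of all probe sets (9.14% higher and 7.97% lower). Both calls were lost without small ZT12 replicate 2 or without small ZT0 replicate 2. By direction, 21.1% of the chaperones were higher and 0% lower in large PDF than in ELAV neurons, 26.3% and 10.5% in small PDF than in ELAV, and 0% and 10.5% in small than in large.

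**Figure D2:**
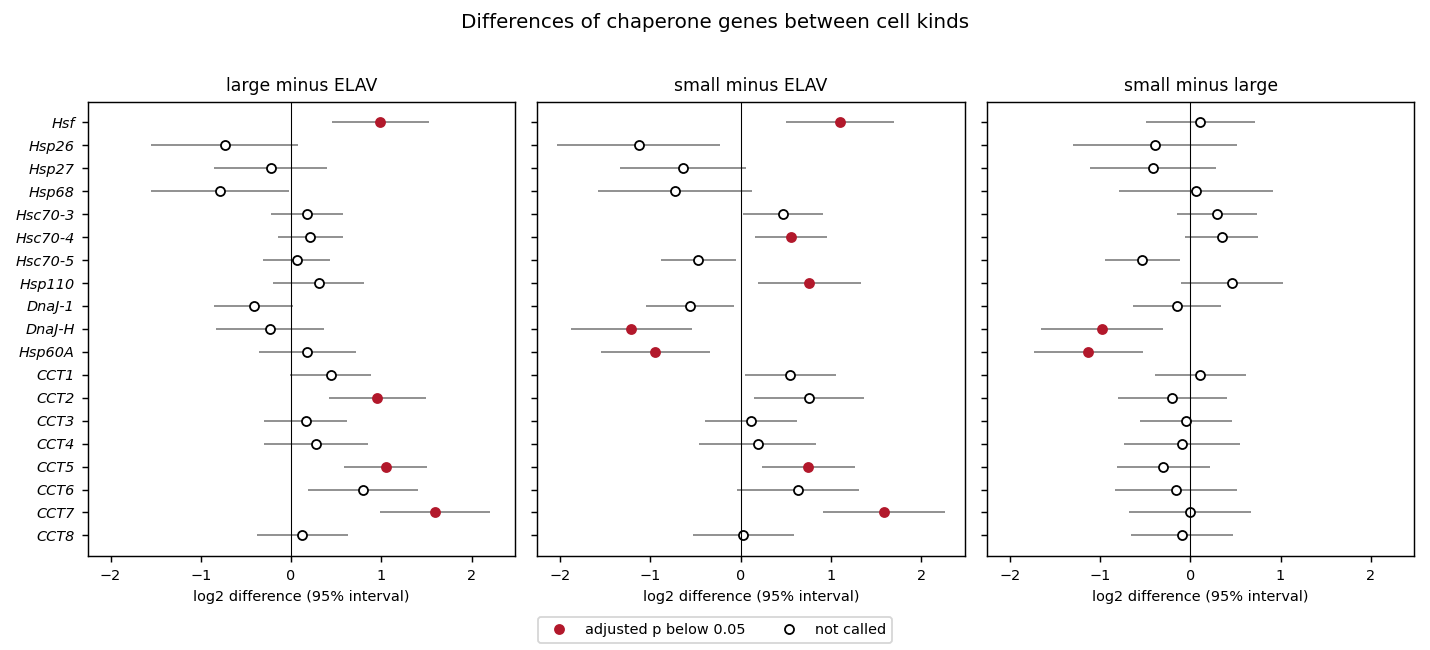
Log2 differences of the 19 tested chaperone genes between cell kinds, averaged over ZT0 and ZT12, with 95% intervals as bars. Filled red points were called at an adjusted p below 0.05 and open points were not. All 8 CCT genes lie to the right of 0 in both contrasts with ELAV neurons, and Hsp60A and DnaJ-H lie to the left in both contrasts of small PDF neurons.

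Hsf encodes heat shock factor, the transcription factor of the heat shock response. In ELAV neurons Hsf read 9.75, 9.71 and 10.03 at ZT0 and 8.91, 9.89 and 10.64 at ZT12. In large PDF neurons the values were 10.42, 10.35 and 10.99 at ZT0, 10.56 and 10.37 at ZT6, 10.90, 11.12 and 11.07 at ZT12, and 8.99 and 9.20 at ZT18. Small PDF neurons gave 10.98 and 10.55 at ZT0 and 11.44 and 10.71 at ZT12, and per01 large neurons 10.28 and 9.79, then 9.95 and 10.18. The wild-type PDF arrays of ZT0 and ZT12 lay above 5 of the 6 ELAV arrays, and only ELAV ZT12 replicate 3 overlapped them. Hsf was higher by 0.99 ± 0.26 in large (adjusted p = 0.00857) and by 1.10 ± 0.29 in small PDF neurons (adjusted p = 0.00777). Both calls were kept in all single-array omissions. The difference between small and large cells was 0.11 ± 0.29 (95% interval −0.49 to 0.72).

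The stress-inducible members gave negative differences in the same contrasts. Hsp26 and Hsp27 are small heat shock proteins, which hold unfolded proteins without using ATP, and Hsp68 is a stress-inducible protein of the Hsp70 class. The median difference of these 3 from ELAV neurons was −0.74 in large and −0.73 in small PDF neurons, where the medians of all probe sets were −0.01 and 0.02. None of the 3 was called by limma in any of the 13 comparisons, and 3 of their values there had an unadjusted p below 0.05 (Hsp68 in large PDF against ELAV neurons, and Hsp26 in small PDF neurons against ELAV and over time).

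Hsp26 read 12.71, 12.66 and 12.59 in ELAV neurons at ZT0 and 12.89, 12.42 and 14.37 at ZT12. Large PDF neurons read 12.87, 12.23 and 12.39 at ZT0, 12.87 and 12.66 at ZT6, 11.72, 11.52 and 12.48 at ZT12, and 12.42 and 12.09 at ZT18. The small PDF values were 12.73 and 12.92 at ZT0 and 9.55 and 12.03 at ZT12, and per01 neurons 12.75 and 12.55, then 11.91 and 13.16. ELAV ZT12 replicate 3 had the highest and small ZT12 replicate 1 the lowest value, and the other arrays of all kinds overlapped. In large PDF neurons the difference from ELAV was −0.74 ± 0.39 (adjusted p = 0.179), and −0.45 without that ELAV array. In small PDF neurons it was −1.13 ± 0.43 (adjusted p = 0.0594). It was −0.85 (adjusted p = 0.137) without that ELAV array and −0.51 (adjusted p = 0.391) without that small array. Without small ZT12 replicate 2 it was called, at −1.75 (adjusted p = 0.00393), and so it was without ELAV ZT12 replicate 2, at −1.33 (adjusted p = 0.0328).

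Hsp27 gave 13.15, 12.40 and 12.81 in ELAV neurons at ZT0 and 12.48, 13.14 and 14.21 at ZT12. The large PDF values were 13.08, 12.67 and 12.57 at ZT0, 13.01 and 12.64 at ZT6, 12.34, 13.36 and 12.81 at ZT12, and 13.53 and 13.10 at ZT18. Small PDF neurons read 12.66 and just under 13, then 11.35 and 12.56, and per01 neurons 13.23 and 13.17, then 12.88 and 13.43. The same 2 arrays held the highest and lowest values, and the rest spanned a narrow band from 12.34 to 13.53. The differences from ELAV were −0.23 ± 0.30 in large and −0.64 ± 0.33 in small PDF neurons, with adjusted p of 0.623 and 0.170.

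Hsp68 read 10.35, 9.14 and 9.97 in ELAV neurons at ZT0 and 10.77, 10.08 and 11.78 at ZT12. Large PDF neurons gave 9.76, 9.85 and 9.58 at ZT0, 10.19 and 9.97 at ZT6, 9.26, 8.85 and 10.05 at ZT12, and 10.10 and 9.93 at ZT18. Small PDF neurons read 10.43 and 9.17, then 8.82 and 10.07, and per01 neurons 10.11 and 9.69, then 9.63 and 11.19. Values of all cell kinds overlapped, with ELAV ZT12 replicate 3 again highest and small ZT12 replicate 1 lowest. The differences from ELAV were −0.79 ± 0.36 in large (adjusted p = 0.126) and −0.73 ± 0.41 in small PDF neurons (adjusted p = 0.204).

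The inducible Hsp70 genes and Hsp22 have only probe sets that several genes share, so their signal cannot be assigned to 1 gene and they are companions of the 24 rather than members. The probe set of Hsp70Aa and Hsp70Ab read 13.61 to 13.97 on the 6 ELAV arrays and 11.81 to 13.45 on the 6 large arrays of ZT0 and ZT12, with no overlap, a separation that 5.99% of all probe sets had in this direction. Its difference was −1.05 ± 0.27 (adjusted p = 0.0086) in large and −0.76 ± 0.31 (adjusted p = 0.0715) in small PDF neurons. The first of the 2 probe sets shared by Hsp70Ba, Hsp70Bb, Hsp70Bbb and Hsp70Bc read 13.59 to 14.53 in ELAV neurons, 12.20 to 13.82 in large and 10.85 to 12.61 in small PDF neurons at those times. It was lower in large (difference −1.005 ± 0.28, adjusted p = 0.0146) and in small PDF neurons (−2.05 ± 0.32, adjusted p = 9.84e-05), and both calls were kept in all single-array omissions. A probe set of Hsp70Bb and Hsp70Bc, which partly reads the same transcripts, gave −0.89 ± 0.28 (adjusted p = 0.0265, lost in 5 of 12 single-array omissions) and −1.98 ± 0.31 (adjusted p = 0.000122). The second probe set of all 4 B copies gave −0.85 ± 0.37 (adjusted p = 0.101) and −1.09 ± 0.41 (adjusted p = 0.0568).

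Small PDF neurons were lower than large ones on the first B probe set (difference −1.04 ± 0.32, adjusted p = 0.0300) and on that of Hsp70Bb and Hsp70Bc (−1.09 ± 0.31, adjusted p = 0.0232). Each of these calls was lost in 5 of 10 single-array omissions, and without small ZT12 replicate 1 the values were at their nearest to 0, −0.73 and −0.82. The other Hsp70 probe sets were not called in this contrast, the second of the B copies at −0.24 ± 0.41 (adjusted p = 0.741) and that of Hsp70Aa and Hsp70Ab at 0.29 ± 0.31 (adjusted p = 0.562). Hsp22, a mitochondrial small heat shock protein, shares its probe sets with CG4456, and only 1 of them was tested. The other read 7.56 on ELAV ZT12 replicate 3 and at most 3.86 on all other arrays. The tested probe set was lower in large (difference −1.04 ± 0.33, adjusted p = 0.0275) and in small PDF neurons (−1.53 ± 0.37, adjusted p = 0.00457). The large call was lost in 7 of 12 omissions, among them ELAV ZT12 replicate 3, and the small call in 0 of 10. Small and large PDF neurons differed by −0.49 ± 0.37 on it (adjusted p = 0.396). In the Release 6 annotation Hsp22, Hsp26 and Hsp27 lie in 1 stretch of chromosome arm 3L together with Hsp67Bc, Hsp67Ba and Hsp23, with 0 or 1 other genes between neighbours. The 3 probe sets shared by DnaJ-60 and CG42568 differed in sign between small PDF and ELAV neurons (1.22, −0.87 and −0.62). Hsp83, Hsp23, Hsp67Ba and Hsp67Bc were not analysed, because no probe set carried their symbols in the platform annotation.

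**Figure D3:**
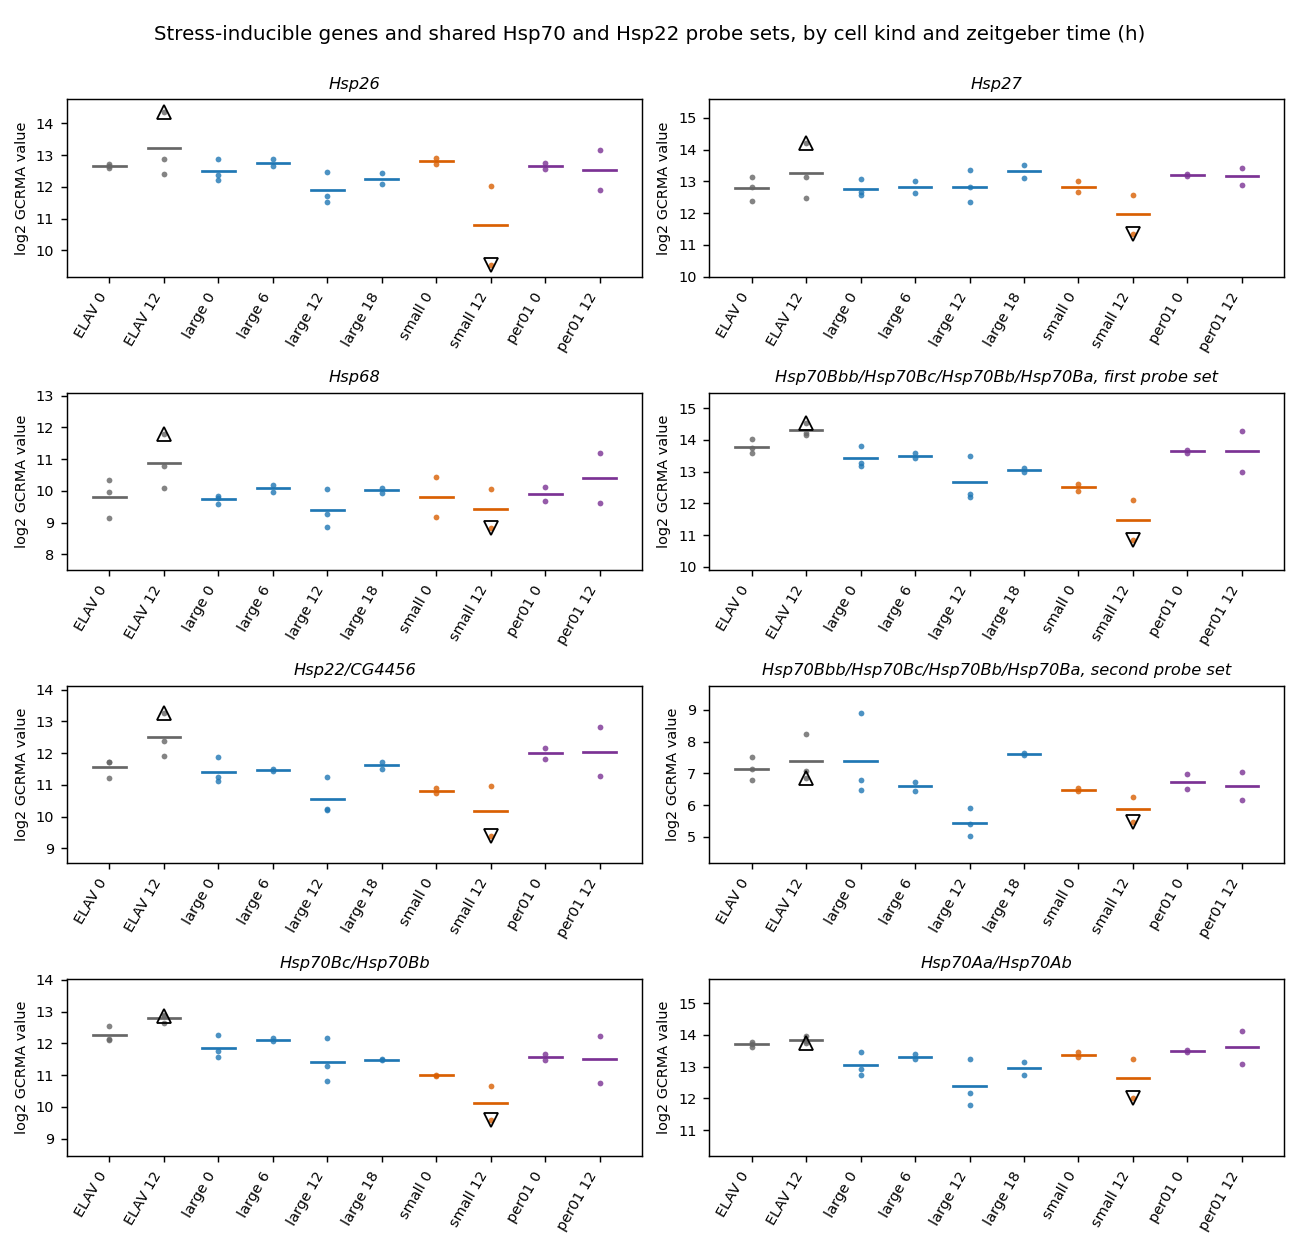
Log2 GCRMA values (vertical axes) of Hsp26, Hsp27 and Hsp68 and of the tested shared probe sets of Hsp70 and Hsp22, by cell kind and ZT in hours (horizontal axes). Points are arrays and bars group means, and open triangles mark ELAV ZT12 replicate 3 (pointing up) and small ZT12 replicate 1 (pointing down). These arrays hold the highest and lowest value of Hsp26, Hsp27, Hsp68, Hsp22 and the first Hsp70B probe set, at 14.37 and 9.55 for Hsp26, but not of every panel.

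Hsc70-4 is the main cognate Hsp70 protein of the cytosol, which among other tasks strips clathrin coats from vesicles at synapses. It read 13.10, 13.05 and 12.76 in ELAV neurons at ZT0 and 13.05, 13.13 and 13.14 at ZT12. Its values in large PDF neurons were 13.08, 12.82 and 12.95 at ZT0, 13.20 and 13.05 at ZT6, 13.33, 13.66 and 13.66 at ZT12, and 12.65 and 12.29 at ZT18. Small PDF neurons gave 13.50 and 13.55, then 13.67 and 13.66, and per01 neurons 13.10 and 12.90, then 12.63 and 13.24. All 4 small arrays lay above all 6 ELAV arrays, and Hsc70-4 was the only tested chaperone of which this held, where 9.77% of all probe sets showed such a separation. It was higher in small PDF than in ELAV neurons by 0.56 ± 0.19 (adjusted p = 0.0368), a call kept only without ELAV ZT0 replicate 1 among the 10 single-array omissions (adjusted p up to 0.0963, differences 0.51 to 0.59). In large PDF neurons the difference was 0.21 ± 0.17 (adjusted p = 0.402).

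Hsp110, an exchange factor that releases nucleotide from Hsp70 proteins, was higher in small PDF than in ELAV neurons by 0.76 ± 0.27 (adjusted p = 0.0421). Its small arrays read 10.65, 10.31, 10.44 and 10.40 and the ELAV arrays 8.93 to 10.77. The top ELAV value was ZT12 replicate 3, and the other 5 ELAV arrays stayed at or below 9.78. The call was kept without that array or without ELAV ZT0 replicate 1 and lost without any of the other 8 (adjusted p up to 0.139). All 4 small arrays also lay above the 6 large arrays of ZT0 and ZT12, at 9.27 to 10.25, which 5.21% of all probe sets did, and the difference of 0.46 ± 0.27 was not called (adjusted p = 0.263). Hsc70-3, the Hsp70 protein of the endoplasmic reticulum, differed from ELAV by 0.18 ± 0.19 in large and by 0.47 ± 0.21 in small PDF neurons (adjusted p = 0.537 and 0.112). Hsc70-5, its mitochondrial relative, differed by 0.06 ± 0.18 and −0.47 ± 0.20 (adjusted p = 0.841 and 0.0875), and between small and large PDF neurons by −0.53 ± 0.20 (adjusted p = 0.0733).

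DnaJ-1 is a cytosolic J protein that works with Hsp70 proteins and is itself induced by heat. In ELAV neurons it read 13.24, 12.86 and 13.25 at ZT0 and 12.78, 13.39 and 13.06 at ZT12. Its large PDF values were 12.86, 12.77 and 12.53 at ZT0, 12.52 and 12.27 at ZT6, 12.28, 12.79 and 12.86 at ZT12, and 12.48 and 12.32 at ZT18. Small PDF neurons gave 12.87 and 12.91, then 11.92 and 12.43, and per01 neurons 12.88 and 12.89, then 12.38 and 13.37. The ELAV values sat at the upper end with some overlap, and the differences of −0.41 ± 0.21 in large and −0.56 ± 0.23 in small PDF neurons were not called (adjusted p = 0.161 and 0.0826).

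DnaJ-H is another J-domain protein. ELAV neurons gave 9.76, 9.91 and 8.94 at ZT0 and 9.36, 9.46 and 9.61 at ZT12. Large PDF neurons gave 9.92, 9.45 and 9.82 at ZT0, 9.69 and 9.27 at ZT6, 9.16, 7.91 and 9.38 at ZT12, and 9.14 and 9.45 at ZT18. Small PDF neurons read 8.31 and 7.81, then 9.09 and 7.96, and per01 neurons 9.49 and 8.67, then 8.82 and 8.95. The 3 lowest small values lay under every ELAV array, while small ZT12 replicate 1 fell within the ELAV range. DnaJ-H was lower in small PDF than in ELAV neurons (difference −1.21 ± 0.32, adjusted p = 0.00818), which was −0.93 without small ZT12 replicate 2 (adjusted p = 0.0595). Against large PDF neurons it was −0.98 ± 0.32 (adjusted p = 0.0424), a call lost in 7 of 10 single-array omissions with adjusted p up to 0.204, and it was −0.70 without small ZT12 replicate 2. Large PDF neurons differed from ELAV by −0.24 ± 0.29 (adjusted p = 0.590).

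Hsp60A is the chaperonin of the mitochondrial matrix. In ELAV neurons it read 12.03, 12.33 and 11.78 at ZT0 and 11.74, 12.31 and 11.30 at ZT12. Large PDF neurons read 12.73, 11.88 and 12.04 at ZT0, 12.10 and 11.80 at ZT6, 12.03, 12.23 and 11.66 at ZT12, and 11.43 and 11.20 at ZT18. Small PDF neurons gave 11.73 and 11.43, then 11.06 and 9.64, and per01 neurons 11.35 and 11.29, then 11.51 and 11.24. The small arrays of ZT0 lay within the ELAV range and those of ZT12 under it, and ZT12 replicate 2 was far under all other arrays. Hsp60A was lower in small PDF neurons than in ELAV neurons (difference −0.95 ± 0.29, adjusted p = 0.0192) and than in large ones (−1.13 ± 0.29, adjusted p = 0.0109). Without small ZT12 replicate 2 these were −0.59 (adjusted p = 0.143) and −0.77 (adjusted p = 0.0826), and without small ZT0 replicate 2 −0.87 (adjusted p = 0.0738) and −1.05 (adjusted p = 0.0503). Between large PDF and ELAV neurons the difference was 0.18 ± 0.26 (adjusted p = 0.656).

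The CCT genes encode the subunits of the cytosolic ring chaperonin that folds actin and tubulin. All 8 had positive differences from ELAV neurons in large and in small PDF neurons, as had 49.4% and 51.2% of all probe sets. The medians of the 8 were 0.62 and 0.59, where the medians of all probe sets were −0.01 and 0.02. The call was reached by 3 of the 8 in large (CCT7, CCT5 and CCT2) and by 2 in small PDF neurons (CCT7 and CCT5). Of all probe sets, 11.9% and 13.6% were called higher in these contrasts. At the other end CCT8 and CCT3 differed by 0.12 ± 0.24 and 0.16 ± 0.22 in large and by 0.03 ± 0.27 and 0.11 ± 0.24 in small PDF neurons. Between small and large PDF neurons the 8 differences ran from −0.30 to 0.11 and none was called, with a smallest unadjusted p of 0.235.

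CCT7 read 8.67, 8.65 and 8.12 in ELAV neurons at ZT0 and 8.29, 9.10 and 10.47 at ZT12. In large PDF neurons it read 10.23, 10.23 and 10.35 at ZT0, 10.27 and 10.22 at ZT6, 10.67, 11.05 and 10.34 at ZT12, and 9.84 and 9.57 at ZT18. Values in small PDF neurons were 10.73 and 10.84, then 10.34 and 9.99, and per01 neurons 9.13 and 9.79, then 9.51 and 9.97. Apart from ELAV ZT12 replicate 3, each ELAV array lay under each PDF array, the per01 ones included. CCT7 was higher by 1.59 ± 0.29 in large (adjusted p = 0.000503) and by 1.59 ± 0.32 in small PDF neurons (adjusted p = 0.00118). Both calls were kept in all single-array omissions, and without ELAV ZT12 replicate 3 the differences were at their largest, 1.89 and 1.89.

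CCT5 read 11.70, 10.85 and 10.91 in ELAV neurons at ZT0 and 10.73, 11.33 and 11.36 at ZT12. Large PDF neurons gave 12.32, 12.01 and 11.85 at ZT0, 12.10 and 12.07 at ZT6, 12.45, 12.41 and 12.14 at ZT12, and 11.64 and 12.39 at ZT18. Those of small PDF neurons were 12.05 and 11.67, then 12.01 and 11.86, and per01 neurons 11.35 and 11.84, then 12.03 and 11.67. The 6 large arrays of ZT0 and ZT12 lay above all ELAV arrays for CCT5, as they did for CCT2, and 5.21% of all probe sets had this separation. CCT5 was higher by 1.05 ± 0.22 in large PDF neurons (adjusted p = 0.00167), a call kept in all 12 single-array omissions. In small PDF neurons it was higher by 0.75 ± 0.24 (adjusted p = 0.0286), a call lost in 6 of 10, which were ELAV ZT12 replicate 1, ELAV ZT0 replicates 2 and 3, both small ZT12 arrays and small ZT0 replicate 1 (adjusted p up to 0.112, differences 0.64 to 0.89).

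CCT2 read 10.65 to 11.74 on the ELAV arrays, 11.75 to 12.93 on the large arrays of ZT0 and ZT12 and 11.51 to 12.38 on the small arrays. It was higher in large PDF neurons by 0.96 ± 0.26 (adjusted p = 0.0109), and this call was kept in all single-array omissions. In small PDF neurons the difference was 0.76 ± 0.29 (adjusted p = 0.0588). CCT6 differed by 0.80 ± 0.29 in large (adjusted p = 0.0518) and by 0.63 ± 0.32 in small PDF neurons (adjusted p = 0.159). CCT1 gave 0.44 ± 0.21 and 0.55 ± 0.24 (adjusted p = 0.147 and 0.100), and CCT4 0.28 ± 0.27 and 0.19 ± 0.31 (adjusted p = 0.5 and 0.696).

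The comparison of per01 with wild-type large PDF neurons asked what the loss of the clock gene period changes. Genotype, sex of the flies and the distribution of array values cannot be told apart in it. CCT3 and CCT7 were lower in per01 neurons and no chaperone was higher, 10.5% of the 19 beside 32% of all probe sets (31% lower and 0.926% higher). CCT3 read 9.96 to 10.23 on the 4 per01 arrays and 10.85 to 11.41 on the 6 wild-type arrays of ZT0 and ZT12, a difference of −0.88 ± 0.24 (adjusted p = 0.0117). CCT7 read 9.13 to 9.97 against 10.23 to 11.05, a difference of −0.88 ± 0.32 (adjusted p = 0.0452), and its call was lost in 9 of 10 single-array omissions (adjusted p up to 0.165), being kept only without large ZT12 replicate 3. For CCT3, CCT7, Hsf and Hsp60A all per01 arrays lay under all wild-type arrays, as they did for 24.4% of all probe sets. The median difference of all probe sets was −0.69 as deposited, and that of the 19 chaperones −0.33. When all arrays were given 1 common distribution (requantiled), the median of all probe sets moved by 0.71 to 0.02. CCT3 then differed by −0.42 ± 0.25 (adjusted p = 0.341) and CCT7 by −0.37 ± 0.33 (adjusted p = 0.551), and none of the 19 was called. With every array centred on its own median, CCT3 and CCT7 differed by −0.12 and −0.12 and were not called, while DnaJ-1 (0.97, adjusted p = 0.0182) and Hsp68 (1.36, adjusted p = 0.0399) were higher. Hsp26, Hsp27 and Hsp68 differed by 0.39 ± 0.43, 0.37 ± 0.33 and 0.60 ± 0.41 as deposited and by 0.75 ± 0.43, 0.71 ± 0.35 and 1.05 ± 0.40 requantiled (adjusted p of 0.5, 0.396 and 0.263, then 0.324, 0.241 and 0.125). The tested shared probe sets of Hsp70A and of Hsp22 with CG4456 were higher in per01 neurons, by 0.83 ± 0.31 (adjusted p = 0.0456) and 1.04 ± 0.37 (adjusted p = 0.0404) as deposited and by 1.23 and 1.40 requantiled (adjusted p = 0.0160 and 0.0267). Each of these calls was lost in 7 of 10 single-array omissions of the deposited values. The Hsp70B probe sets were not called on either scale. As deposited the first and second of all 4 copies gave 0.60 ± 0.32 and 0.25 ± 0.41 (adjusted p = 0.148 and 0.656) and that of Hsp70Bb and Hsp70Bc −0.10 ± 0.31 (adjusted p = 0.828), and requantiled they gave 0.96, 1.03 and 0.30. Without per01 ZT12 replicate 2, which had the highest Hsp70A value of all arrays at 14.14, the differences of Hsp70A and Hsp22 were 0.57 and 0.65.

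**Figure D4:**
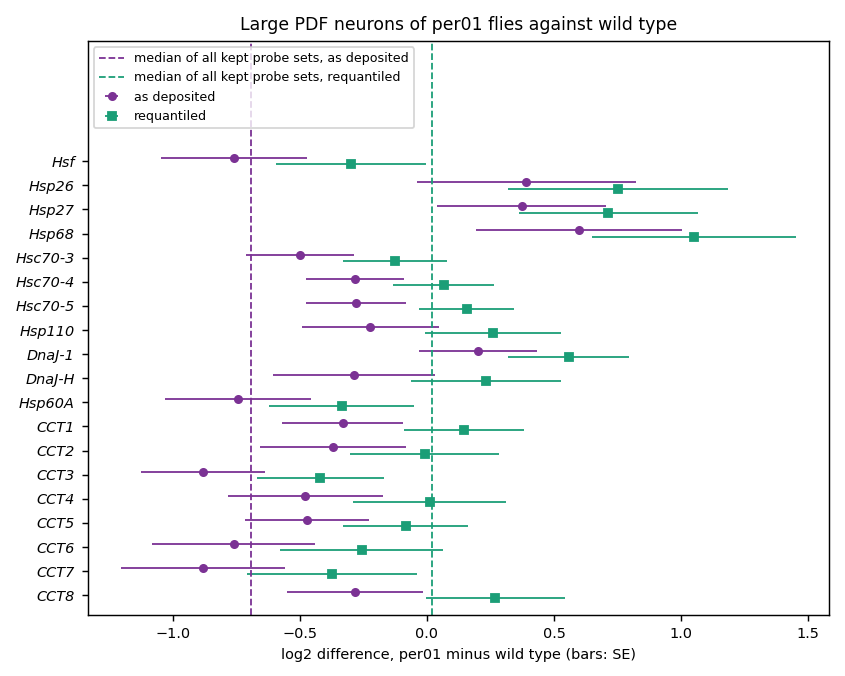
Log2 differences between per01 and wild-type large PDF neurons for the 19 tested chaperone genes (horizontal axis, bars are standard errors), as deposited (purple circles) and requantiled (green squares). Dashed lines mark the median of all tested probe sets at −0.69 and 0.02. As deposited, 14 of the 19 lie to the right of the purple line. CCT3, CCT6, CCT7, Hsf and Hsp60A lie left of the median line of the same colour on both scales.

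Over the day no chaperone was called by limma in any group. Between ZT12 and ZT0 the counts at an unadjusted p below 0.05 were 3 in large PDF, 3 in small PDF, 1 in ELAV and 0 in per01 neurons, with 2.19%, 3.39%, 0.024% and 0.012% of all probe sets called. Between ZT18 and ZT6 in large PDF neurons 3 of the 19 had an unadjusted p below 0.05, and 0.397% of all probe sets were called. Over the 4 times in large PDF neurons 3 of the 19 did, and 2.02% were called. These percentages are of probe sets called at an adjusted p, so they give no background for the counts at an unadjusted p. The share of all probe sets with an unadjusted p below 0.05 was not counted. The transcripts nearest to a call were Hsf, Hsc70-4 and Hsc70-3 in large PDF neurons and Hsc70-5, Hsp26 and Hsp60A in small ones.

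Hsf had group means in large PDF neurons that differed by up to 1.94 over the 4 times (limma F test, adjusted p = 0.0583). Both ZT18 arrays lay under all 8 arrays of the other times. The change from ZT6 to ZT18 was −1.37 ± 0.44 (adjusted p = 0.291), and from ZT0 to ZT12 the 3 large arrays at each time overlapped. Hsc70-4 had a range of group means of 1.08 (adjusted p = 0.133), with all 3 ZT12 arrays above the other large arrays and both ZT18 arrays under them. Hsc70-3 gave 12.79, 12.56 and 12.83 at ZT0, 13.74 and 13.64 at ZT6, 13.51, 13.28 and 13.32 at ZT12, and 12.91 and 12.88 at ZT18. Its arrays of ZT6 and ZT12 lay above those of ZT0 and ZT18, a range of group means of 0.96 (adjusted p = 0.190). Of all probe sets, 27.4% had both ZT18 arrays of large PDF neurons under both ZT6 arrays. All 3 ZT12 arrays lay above all 3 ZT0 arrays for 9.58%. The shares with the orders seen here over all 4 times were not counted. Hsf passed the threshold under 4 alternative settings, Hsc70-4 under 3 and Hsc70-3 under 1, all resting on 2 arrays at ZT6 and 2 at ZT18.

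In small PDF neurons 14 of the 19 differences between ZT12 and ZT0 were negative, as were those of 4220 of all 8318 probe sets. Of the 19, 8 had both ZT12 arrays under both ZT0 arrays, a separation that 21.5% of all probe sets had. The reverse held for 1, Hsc70-4, beside 18.4% of all probe sets. Hsc70-5 gave 11.61 and 11.37 at ZT0 and 10.60 and 10.36 at ZT12, a difference of −1.01 ± 0.31 (adjusted p = 0.0866). The 2 ZT12 arrays lay together and under the other 22 arrays. Hsp26 differed by −2.04 ± 0.67 (adjusted p = 0.122), which was −0.79 (adjusted p = 0.856) without ZT12 replicate 1 and −3.28 (adjusted p = 0.00986) without ZT12 replicate 2. Hsp60A differed by −1.23 ± 0.44 (adjusted p = 0.174), which was −1.94 (adjusted p = 0.0429) without ZT12 replicate 1 and −0.52 (adjusted p = 0.662) without ZT12 replicate 2. Of the 2 small ZT12 arrays, replicate 1 was low for Hsp26 and replicate 2 for Hsp60A. Of the 10 tested immediate stress and activity genes, 3 were called between ZT12 and ZT0 in small PDF neurons, beside 3.39% of all probe sets. Hr38 and sr were lower at ZT12 (−5.50 ± 1.07 and −3.30 ± 0.74) and Mkp3 was higher (2.78 ± 0.60). The part of these genes in the chaperone values was not tested.

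**Figure D5:**
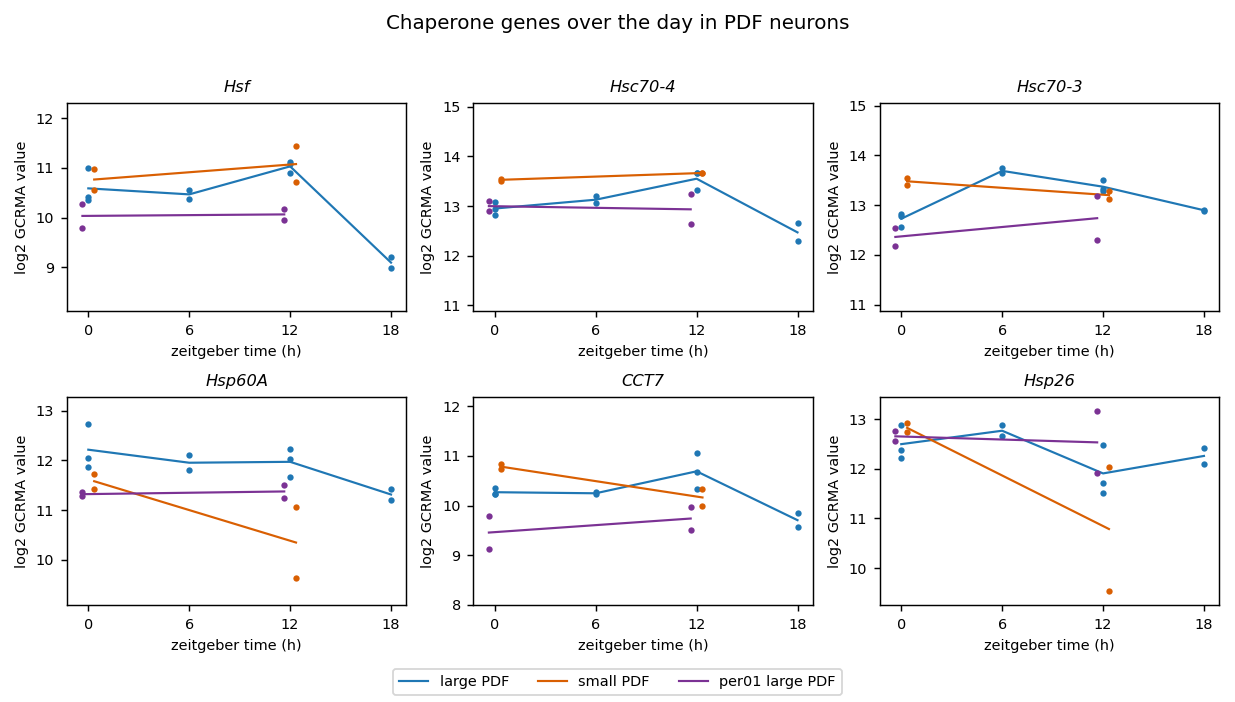
Log2 GCRMA values (vertical axes) of 6 chaperone genes over zeitgeber time in hours (horizontal axes) in large (blue), small (orange) and per01 large (purple) PDF neurons. Points are arrays and lines join group means, and small and per01 points are shifted sideways for clarity. Hsf is lowest at ZT18, Hsc70-3 is highest at ZT6 in large neurons, and the small ZT12 arrays are far apart for Hsp26 (9.55 and 12.03).

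Tests of whether the ZT12 minus ZT0 change differed between groups called no chaperone. The count at an unadjusted p below 0.05 was 2 for small against large PDF neurons, 0 for large PDF against ELAV neurons and 0 for per01 against wild type. At an adjusted p below 0.05, 0.697%, 0.0962% and 0.144% of all probe sets were called, which gives no background for counts at an unadjusted p. The 2 chaperones with an unadjusted p below 0.05 were Hsc70-3 (−0.92 ± 0.42, adjusted p = 0.439) and DnaJ-H (1.38 ± 0.64, adjusted p = 0.447).

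Other genes of protein folding and stress were counted on 5 lists. Their counts stand beside 11.9% of all probe sets higher and 12.5% lower in large PDF against ELAV neurons, 13.6% and 14% in small PDF against ELAV, 9.14% and 7.97% in small against large, and 0.926% and 31% in per01.

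Among J proteins and exchange factors outside the 24, 12 of 17 listed genes were tested, and 3 were lower and 0 higher in large PDF than in ELAV neurons, as were 3 and 0 in small ones. The J protein gene jdp was lower, with differences of −5.91 ± 0.49 in large and −7.20 ± 0.54 in small PDF neurons (adjusted p = 6.06e-08 and 2.09e-08). Roe1, the exchange factor of mitochondrial Hsp70 and so a partner of Hsc70-5, was lower as well (−0.88 ± 0.23 and −1.62 ± 0.26, adjusted p = 0.00852 and 0.000123). Roe1 also fell from ZT0 to ZT12 in small PDF neurons (−2.25 ± 0.40, adjusted p = 0.00296) and was called in all 4 single-array omissions. Tpr2, a J protein, was lower in large PDF neurons (−0.98 ± 0.27, adjusted p = 0.0111). Sil1, an exchange factor of the endoplasmic reticulum, was lower in small PDF neurons than in ELAV (−1.43 ± 0.32, adjusted p = 0.00242) and in large ones (−1.07 ± 0.32, adjusted p = 0.0263, lost in 4 of 10 single-array omissions). In per01 neurons 5 of the 12 were lower as deposited, the largest differences being those of jdp (−2.15), Rme-8 (−1.66), P58IPK (−1.35) and Sil1 (−1.27), and none was called after requantiling, where Sil1 differed by 0.01.

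Of 13 genes for Hsp90 proteins and partners 11 were tested, with 0 higher and 3 lower in large PDF than in ELAV neurons and 1 higher and 1 lower in small ones. Trap1, the mitochondrial Hsp90 protein, was lower in both (−1.31 ± 0.35 and −1.43 ± 0.39, adjusted p = 0.00962 and 0.0101), the small call being lost without small ZT12 replicate 2 (−1.05, adjusted p = 0.0752). In large PDF neurons nudC (−1.40 ± 0.48, adjusted p = 0.0411) and STUB1 (−1.10 ± 0.34, adjusted p = 0.0253), a ubiquitin ligase that binds Hsp70 and Hsp90 proteins, were lower too, calls lost in 8 and 3 of 12 single-array omissions. Cdc37, which brings kinases to Hsp90, was higher in small PDF neurons (0.81 ± 0.23, adjusted p = 0.0131, lost in 2 of 10 single-array omissions). Sgt was lower in small than in large PDF neurons (−0.88 ± 0.25, adjusted p = 0.0208, lost in 2 of 10). In per01 neurons Sgt was lower as deposited (−1.09 ± 0.25, adjusted p = 0.00351) and was not called after requantiling (−0.54). Gp93, the Hsp90 protein of the endoplasmic reticulum, changed over the 4 times in large PDF neurons, with group means up to 1.72 apart (adjusted p = 0.0408).

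Prefoldin hands actin and tubulin to the CCT ring, and of the 7 tested genes on the prefoldin list only Pfdn6 was called. It was higher in large PDF than in ELAV neurons (0.84 ± 0.21, adjusted p = 0.00579) and lower in small than in large ones (−1.17 ± 0.23, adjusted p = 0.00189).

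Of 16 genes for folding in the endoplasmic reticulum 11 were tested, with 1 higher and 1 lower in large PDF than in ELAV neurons and 1 higher and 0 lower in small ones. In large PDF neurons Cnx99A, a calnexin, was higher (0.61 ± 0.20, adjusted p = 0.0288) and ERp60, a protein disulfide isomerase, was lower (−0.62 ± 0.22, adjusted p = 0.0456), calls lost in 5 and 10 of 12 single-array omissions. Sec61alpha, a subunit of the channel through which proteins enter the reticulum, was higher in small PDF neurons (1.29 ± 0.33, adjusted p = 0.00708). The gene prtp was lower in small than in large PDF neurons (−0.63 ± 0.21, adjusted p = 0.0498), a call lost in 9 of 10 omissions. In per01 neurons prtp (−0.78) and ERp60 (−0.68) were lower as deposited and not called after requantiling. Hrd3, which takes part in the disposal of misfolded proteins, fell from ZT0 to ZT12 in large PDF neurons (−1.69 ± 0.41, adjusted p = 0.0372), and the call was kept only without large ZT12 replicate 3 among the 6 omissions.

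Of 16 other stress genes 12 were tested, with 4 higher and 2 lower in large and 3 higher and 3 lower in small PDF neurons. MtnA, a metallothionein that binds metals, was higher in both (2.55 ± 0.37 and 2.92 ± 0.42, adjusted p = 6.01e-05 and 4.4e-05), as was cnc, the transcription factor of the oxidative stress response (0.88 ± 0.22 and 1.13 ± 0.25, adjusted p = 0.00666 and 0.00224). MTF-1, the factor that switches on metallothionein genes, was higher in large PDF neurons (0.90 ± 0.25, adjusted p = 0.0151), a call kept in all 12 single-array omissions, and so was Trxr1, a thioredoxin reductase (0.82 ± 0.27, adjusted p = 0.0324, lost in 7 of 12). In small PDF neurons ref(2)P, an adaptor of autophagy, was higher (1.08 ± 0.35, adjusted p = 0.0262, lost in 6 of 10). Lower in both were foxo (−1.56 ± 0.42 and −1.73 ± 0.47) and Nmnat, an NAD-making enzyme with chaperone activity (−1.27 ± 0.24 and −0.93 ± 0.27). The small calls of these 2 were lost in 1 and 2 of 10 omissions, the former without small ZT0 replicate 1 and the latter without that array or small ZT12 replicate 2. Sod2, the mitochondrial superoxide dismutase, was lower in small PDF neurons (−0.80 ± 0.29, adjusted p = 0.0455, lost in 7 of 10).

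Small PDF neurons were lower than large ones in GstD1, a glutathione transferase (−0.96 ± 0.29, adjusted p = 0.0288), and Trxr1 (−0.96 ± 0.30, adjusted p = 0.0357), calls lost in 5 and 6 of 10 omissions. In per01 neurons foxo (−1.29) and Sod2 (−0.88) were lower as deposited and not called after requantiling. The small heat shock protein gene l(2)efl fell from ZT0 to ZT12 in small PDF neurons (−3.17 ± 0.77, adjusted p = 0.0277). That call was kept only without small ZT0 replicate 2, and over the 4 omissions the difference ran from −4.62 to −1.73.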

How the data were processed

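Per the labels' protocols, total RNA of sorted cells was amplified in 2 rounds and hybridised to Affymetrix Drosophila arrays. The authors deposited log2 expression values, and per the submitters' processing notes GCRMA and R 2.6 were used to make them. No source used here says whether wild-type and per01 arrays went through 1 normalization. Because array medians differ between them, per01 contrasts are also given after all arrays were put on 1 distribution (requantiled).

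From the 18952 probe sets, after removal of 183 controls, 8318 reached log2 5 on at least 2 of the 24 arrays. limma 3.58.1 in R 4.3.3 fitted the means of the 10 groups (14 residual and 3.62 prior degrees of freedom), with Benjamini-Hochberg adjustment over all 8318. Of the probe sets, 13647 carried 1 symbol, 402 several and 4720 none in the platform annotation. The filter at log2 5, a stricter filter at log2 7, no filter, a floor, requantiling, median centring, other variance settings, a replicate block and the omission of each array were compared. The number of arrays limits the precision. The fit was tested on simulated data, where on average slightly more calls were false than the threshold of 0.05 allows. A first limit on false calls had not been met by the test over the 4 times and was replaced by a limit on the mean of repeated simulations.

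The members, gene lists and tests were chosen with earlier results of these data known, and 6 misassigned names were taken off the lists after the files were read. Per-array values are given for Hsf, Hsc70-4, DnaJ-1, the small heat shock proteins, Hsp68 and members called with a difference of at least 1. Each further list gives its called genes, at most 4 by size per contrast and direction.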

Additional observations from a re-analysis of the deposited data

Results flagged for a closer look

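Hsc70-3, the Hsp70 protein of the endoplasmic reticulum, had its ZT12 and ZT0 arrays in opposite order in large and small PDF neurons. All 3 large arrays at ZT12 lay above all 3 at ZT0 (0.64 ± 0.27), and both small arrays at ZT12 lay under both at ZT0 (−0.28). Of all probe sets, 9.58% had the first separation and 21.5% the second. The difference between these changes was −0.92 ± 0.42, with an adjusted p of 0.439 in limma's interaction test, so it was not called.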

How the results depend on the processing

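Of 247 values of members over the 13 comparisons 15 were called, and none of these changed sign under any alternative. Counts of calls that changed by more than a factor of 1.5, or from 0, are given below with some smaller changes. The causes were not tested. Among smaller changes, CCT6 was also called higher in large PDF than in ELAV neurons under several settings (adjusted p = 0.0253 to 0.0421). These were the stricter filter, the floor, the variance trend, the replicate block and median centring. In small PDF against ELAV neurons the stricter filter also called CCT2 (0.76) and Hsp26 (−1.13). With the groups of the contrast alone in the fit, 3 members were called between small PDF and ELAV neurons and 0 between small and large PDF neurons. With a variance trend and robust moderation, 12 were called between small PDF and ELAV neurons (7 higher, 5 lower), 6 in per01, 1 between ZT12 and ZT0 in large PDF neurons (Hsc70-4), 1 in small ones (Hsc70-5) and 3 over the 4 times. Without a filter the counts were 5 in per01, 1 in small PDF neurons over time and 2 over the 4 times, and with a floor at log2 5 they were 1, 1 and 2. The stricter filter gave 1 over the 4 times (Hsf). Requantiling gave 0 in per01, and Hsc70-4 (adjusted p = 0.0762) and Hsp110 (adjusted p = 0.061) were no longer called between small PDF and ELAV neurons, while Hsp26 (−1.19, adjusted p = 0.0478) and Hsc70-5 (−0.52, adjusted p = 0.047) were called, so that 3 were higher and 4 lower in place of 5 and 2. Hsc70-5 was also called lower in small against large PDF neurons (−0.60, adjusted p = 0.0328). Requantiling moved the median of all probe sets by −0.10 for time in ELAV neurons and by 0.13 for ZT18 against ZT6. Median centring, chosen after seeing the data, gave 2 in per01, both higher (DnaJ-1 and Hsp68), in place of the 2 lower ones. Leaving out single arrays gave 4 to 6 calls for large PDF against ELAV neurons, 4 to 9 for small PDF against ELAV, 0 to 2 for small against large, 1 to 3 for per01 and 0 to 1 for time in small PDF neurons, and 0 in the other time comparisons. Deviations of same-numbered arrays of different groups from their group means had correlations of −0.16 to 0.14 (96 pairs). Where both groups hold 2 arrays, the 2 replicates give the same correlation, so the 96 are not separate values. No pairing by replicate number was seen, but groups this small cannot exclude one. With the replicate block, 1 member (Hsp60A) was called between small and large PDF neurons. The block also ended the calls of CCT5 (adjusted p = 0.0694) and Hsc70-4 (adjusted p = 0.0709) in small PDF against ELAV neurons, of DnaJ-H in small against large (adjusted p = 0.0565) and of CCT7 in per01 (adjusted p = 0.0886).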
